A study of Mus musculus with 21 samples.

Results

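D5-LSKCD201+ cells, made in culture from mouse pluripotent stem cells, were compared with FL-LSKCD201+ cells, the cells of the same surface phenotype sorted from mouse fetal liver. Each population was represented by 3 RNA-seq libraries, so the comparison rests on 6 of the 21 libraries of the series and on 6 of its 15 sorted-cell libraries, and all 27968 genes listed for them were taken. LSK stands for lineage-negative, Sca-1 positive and c-kit positive, the gate that holds mouse hematopoietic stem cells (HSC) and early progenitors, and CD201 is the endothelial protein C receptor. The D5-LSKCD201+ cells are labelled 129/ola, and the study's methods name embryonic stem cells of both 129/ola and C57BL/6 origin. They were made by differentiating embryonic stem cells as embryoid bodies in a 3D self-assembling peptide system, replating the colonies on mitomycin C-treated OP9 stromal cells (a mouse marrow stromal line) with stem cell factor, IL-3 and Flt3 ligand, and sorting on day 5 of the coculture. The FL-LSKCD201+ cells are primary cells of C57BL/6 embryos at embryonic day 12.5 and were not cultured. Strain label, culture, developmental age and tissue of origin therefore differ together between the groups and cannot be told apart. Values are FPKM, read fragments scaled by the length of the transcript and the size of the library, so they can be compared between genes but do not give the sequencing depth. The comparison asks how near the induced cells came in their transcriptome to the cells that the same gate gives in fetal liver.

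In the embryo, HSC bud from arterial endothelium, a step called the endothelial to hematopoietic transition. The bud turns down endothelial genes and turns on the blood program under RUNX1, GFI1 and GFI1B, with Notch signalling setting the arterial identity of the vessel beforehand. The new stem cells then settle in the fetal liver, where they multiply beside maturing red cells, macrophages and hepatoblasts. CD201 is found on both HSC and endothelium, and the liver HSC pool is commonly purified with it.

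The 3 surface markers of the gate were transcribed in all 6 libraries. CD201, encoded by Procr, stood at 59.2, 61.9 and 57.9 FPKM in the D5-LSKCD201+ replicates 1 to 3 and at 66.6, 69.3 and 69.4 FPKM in the FL-LSKCD201+ replicates 1 to 3. The level of Kit, the stem cell factor receptor, was 47.8, 42.3 and 43.4 FPKM against 68.1, 40.0 and 45.5 FPKM. Ly6a, which encodes Sca-1, was at 64.2, 57.6 and 62.1 FPKM against 45.8, 36.8 and 39.1 FPKM. None of the 3 reached the fold threshold used here, and since the labels give these proteins as the gate, their levels check the labels only. Outside the gate, the defining leukocyte gene Ptprc was near 0 and endothelial genes such as Cdh5 were high in the induced cells, as described below, so the population is called here by its sort label alone. The antibodies that the study's methods list for sorting were those against c-kit, lineage antigens and CD201, while one against Sca-1 is listed for analysis. Of 12 genes for lineage antigens, 5 were too low to be tested in either group, among them Cd3e, which was listed at 0 FPKM in all 6 libraries. Itgam, the CD11b antigen, was at 0, 0.174 and 0.140 FPKM in the D5-LSKCD201+ libraries and at 6.47, 3.18 and 3.11 FPKM in the FL-LSKCD201+ libraries.

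The libraries of the induced cells lay close together, while FL-LSKCD201+ replicate 1 stood apart from its group. On the log2(FPKM + 1) scale the Euclidean distance over the genes tested was 18.9 to 23.5 among the D5-LSKCD201+ libraries and 16.9 between FL-LSKCD201+ replicates 2 and 3. It was 52.1 to 54.5 from replicate 1 to those, and 171 to 176 between the groups. Replicate 1 summed to 512278 FPKM against 620332 and 612314 FPKM, and the share of 51 ribosomal protein genes was 3.59% in it against 5.59% and 5.43%. Counts below are over all 6 libraries, and without this library the number of members of a gene list that rose, or that fell, moved by at most 2 in every list. The study calls the libraries of a group biological replicates. A figure legend of the study that covers RNA-seq values of the day 5 cells gives error bars over at least 3 independent experiments. For the fetal liver libraries neither the study nor the labels say whether they came from separate litters. The p-values measure the spread between these libraries, which may in part be technical.

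Of 13627 genes tested with limma (mean of at least 0.5 FPKM, adjusted p under 0.05 and a log2 difference of at least 1), 2054 (15.1%) were higher and 2673 (19.6%) lower in D5-LSKCD201+ cells, so 4727 (34.7%) differed. Values of the groups did not overlap for 10434 genes (76.6%). Without FL-LSKCD201+ replicate 1 the counts were 2124 and 2820. The difference reached 5 or more on the log2 scale for 88 of the higher and 77 of the lower genes. The median difference of all genes tested was -0.16 on the log2 scale, and these background shares and this median stand beside the gene lists below. The smallest p an exact permutation of 3 against 3 libraries can give is 0.1, so single genes are judged by the fit across all genes.

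**Figure D1:**
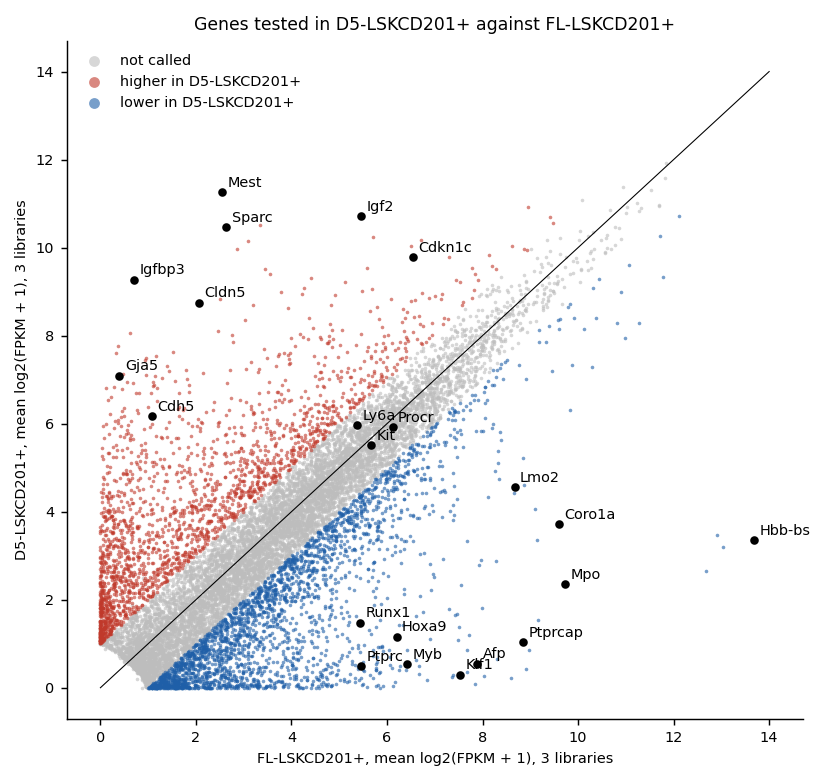
Each point is 1 of the 13627 genes tested, with the mean log2(FPKM + 1) of 3 FL-LSKCD201+ libraries on the horizontal axis and of 3 D5-LSKCD201+ libraries on the vertical axis, red where higher and blue where lower in D5-LSKCD201+ cells. Kit, Ly6a and Procr lie near the line of equal level, Hbb-bs lies farthest to the right and Mest highest among the labelled genes.

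The genes that were highest in the induced cells relative to fetal liver included imprinted, matrix and endothelial genes. Mest, an imprinted gene expressed in mesoderm (chromosome 6, 30723547 to 30748465, plus strand, GRCm38), was at 2400.4, 2490.4 and 2484 FPKM in the D5-LSKCD201+ libraries and at 2.97, 5.29 and 6.94 FPKM in the FL-LSKCD201+ libraries, a log2 difference of 8.72 (SE 0.24, adjusted p = 2.06e-07). Next came Igfbp3, an insulin-like growth factor binding protein (chromosome 11, 7206086 to 7213923, minus strand), at 615, 614 and 621 FPKM against 0.546, 0.624 and 0.755 FPKM (log2 difference 8.56). Sparc, a secreted matrix glycoprotein, followed at 1429.8, 1394 and 1419 FPKM against 3.67, 5.99 and 6.30 FPKM (7.83). In each case every induced library was far above every fetal liver library. Also among the 15 largest were Cav1, the coat protein of caveolae (7.41), the trophoblast gene Plac1 (7.44), the growth cone gene Gap43 (7.27), the secreted phosphoprotein Spp1 (7.12), Cdc42ep1 (6.65), the potassium channel subunit Kcne3 (6.53) and the endothelial genes Plvap, Aplnr, Gja5, Cldn5 and Mmrn2 described below. The ferritin pseudogene Ftl2-ps (7.08) shares sequence with its parent gene, so its reads are uncertain.

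The 15 genes with the largest differences in the other direction were globins, genes of myeloid cells, a liver gene and a pair of blood genes. Hbb-bs, an adult beta-globin (chromosome 7, 103826534 to 103828096, minus strand), was at 8.31, 8.96 and 10.6 FPKM in the D5-LSKCD201+ libraries and at 8651, 16578 and 15941 FPKM in the FL-LSKCD201+ libraries, a log2 difference of -10.33 (SE 0.26, adjusted p = 1.46e-07). Ptprcap, which encodes the protein associated with the leukocyte antigen CD45 (chromosome 19, 4153604 to 4156751, plus strand), was at 0.878, 1.42 and 0.871 FPKM against 442, 472 and 462 FPKM (-7.81). Klf1, the erythroid master regulator (chromosome 8, 84901928 to 84905291, plus strand), was at 0.0949, 0.475 and 0.153 FPKM against 213, 179.5 and 164 FPKM (-7.23). No induced library reached any fetal liver library for these genes. The same held for S100a9 (-8.48), the cystatin Stfa1 (-8.38), S100a8 (-8.13), Elane (-7.77), Ngp (-7.74), Prtn3 (-7.63), Lyz2 (-7.60), Mpo (-7.37) and the alpha-fetoprotein gene Afp (-7.35), all values being log2 differences.

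**Figure D2:**
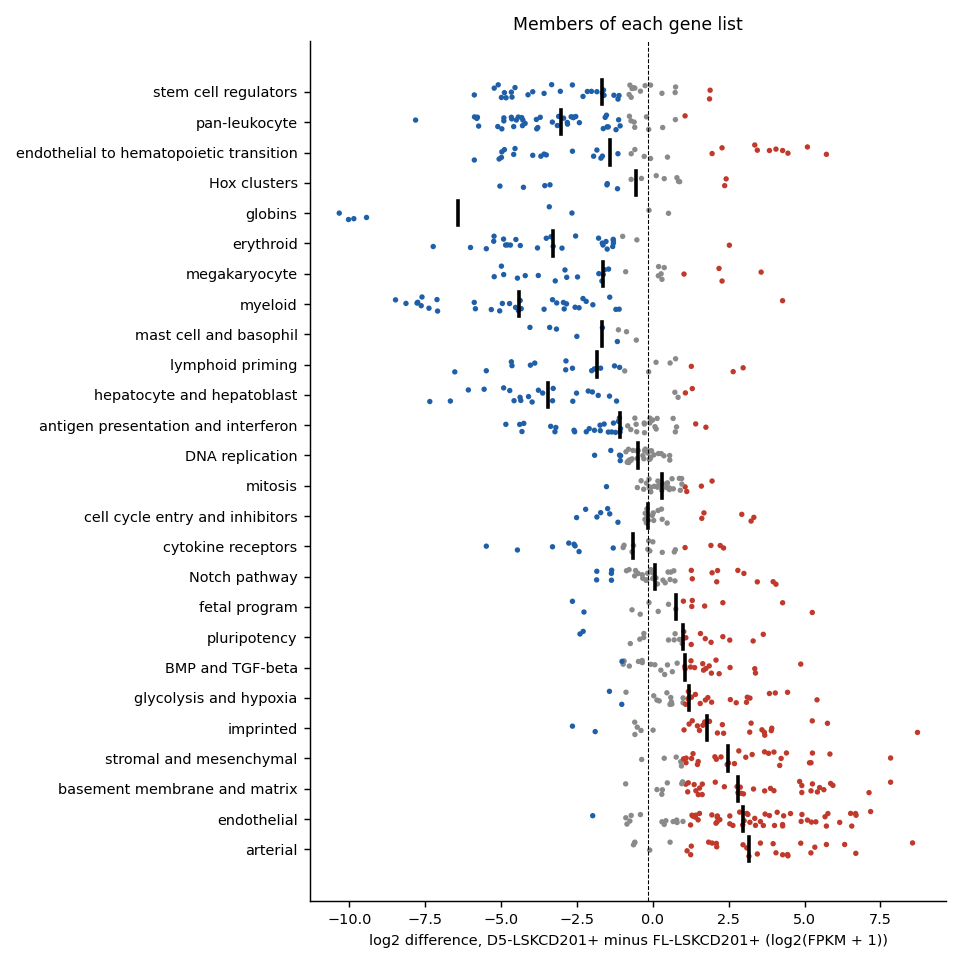
Each point is a tested member of a gene list, placed by its log2 difference between D5-LSKCD201+ and FL-LSKCD201+ cells, red where called higher, blue where called lower and grey where not called. Black bars are list medians and the dashed line is the median of all genes tested, -0.16. Medians run from -6.42 for globins to 3.17 for arterial genes.

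Transcription factors that keep HSC were on balance lower in the induced cells. Of 39 stem cell regulators tested, 25 fell below and 2 rose above fetal liver, 12 were not called, and the list's median log2 difference was -1.66. Summed over the list, the level was 595 to 624 FPKM in the D5-LSKCD201+ libraries and 2139 to 2323 FPKM in the FL-LSKCD201+ libraries. Runx1, which drives the emergence of blood from endothelium (chromosome 16, 92601466 to 92826149, minus strand), stood at 1.89, 2.09 and 1.41 FPKM against 40.6, 41.6 and 44.4 FPKM, a log2 difference of -3.96 (SE 0.11, adjusted p = 2.37e-07). Myb, required for definitive hematopoiesis, was at 0.488, 0.400 and 0.457 FPKM against 96.1, 77.8 and 80.0 FPKM (-5.88, SE 0.10, adjusted p = 4.68e-08). For both genes the groups were widely separated and each induced library was near the bottom of the scale. Gfi1, a repressor that silences endothelial genes at emergence, was at 0.435, 1.34 and 1.04 FPKM against 67.9, 50.6 and 49.0 FPKM (-4.89), and its paralog Gfi1b at 0.310, 0.966 and 0.714 FPKM against 56.0, 50.7 and 46.9 FPKM (-4.99). Hlf, a transcription factor that marks emerging and fetal HSC, was at 0.148, 0.104 and 0.183 FPKM against 24.2, 26.7 and 26.0 FPKM (-4.54).

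Other regulators fell as well, several of them from a high level. Lmo2, a partner of the SCL complex, was at 18.8, 24.97 and 24.6 FPKM against 425, 398 and 397 FPKM, a log2 difference of -4.11. Spi1, which encodes PU.1, was at 13.1, 12.3 and 13.5 FPKM against 163, 169 and 166 FPKM (-3.58). Meis1, a HOX cofactor, was at 18.2, 16.5 and 15.7 FPKM against 99.8, 59.5 and 60.5 FPKM (-2.02), with FL-LSKCD201+ replicate 1 the highest, and Gata2 was at 19.8, 21.1 and 22.1 FPKM against 75.0, 65.2 and 65.8 FPKM (-1.66). Nfe2 (-5.22), the homeobox gene Nkx2-3 (-5.09), Ikzf1 (-4.66), Cebpa (-2.30) and Mycn (-1.84) also fell. The 2 regulators that rose were Tcf15, at 27.5 ± 1.495 FPKM against 6.77 ± 1.40 FPKM (mean ± SD, n = 3; 1.89), and the imprinted gene Ndn, at 56.3 ± 3.48 FPKM against 15.3 ± 5.62 FPKM (1.87).

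Among the 12 regulators not called were several that endothelium also expresses, as it does Lmo2, Meis1 and Gata2, which fell. Fli1, an ETS factor of both lineages, was at 55.0, 55.8 and 56.9 FPKM in the D5-LSKCD201+ libraries and 51.9, 39.6 and 44.7 FPKM in the FL-LSKCD201+ libraries, and the 95% confidence interval of its log2 difference was 0.05 to 0.55. The interval was -0.66 to -0.16 for Erg, a related ETS factor at 12.3, 15.3 and 12.6 FPKM against 16.8, 19.1 and 18.2 FPKM. Tal1, which encodes SCL, was at 5.01, 5.88 and 6.64 FPKM against 10.8, 10.2 and 9.54 FPKM, with an interval of -0.97 to -0.45. None of these intervals reaches the fold threshold. Lyl1, the paralog of Tal1, had a log2 difference of -0.75 and Mecom, which encodes EVI1, one of -0.59, and for both every induced library was below every fetal liver library without reaching the fold threshold.

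**Figure D3:**
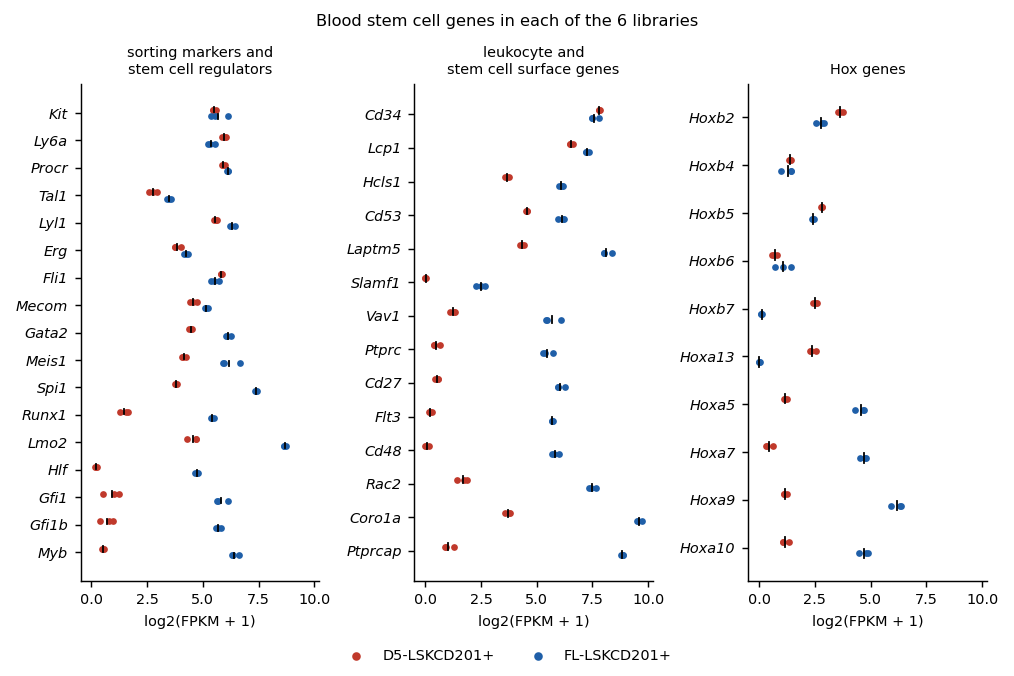
Log2(FPKM + 1) of each D5-LSKCD201+ (red) and FL-LSKCD201+ (blue) library for sorting markers, stem cell regulators, surface genes and Hox genes, with a black tick at each group mean of 3 libraries. The dots of the groups lie together for Kit, Procr and Cd34 and far apart for Myb, Ptprcap and Hoxa9.

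Several Hox genes of the A cluster, which HSC need for self-renewal, fell. Of 33 Hox genes listed, 17 lay under the filter on low values, and of the 16 tested 7 fell, 2 rose and 7 were not called (median log2 difference -0.54, and -0.85 without D5-LSKCD201+ replicate 3). Hoxa9 (chromosome 6, 52223100 to 52231089, minus strand), the most abundant Hox gene of the fetal liver libraries, was at 1.20, 1.14 and 1.40 FPKM in the D5-LSKCD201+ libraries and 60.2, 80.4 and 78.9 FPKM in the FL-LSKCD201+ libraries (log2 difference -5.04, SE 0.13, adjusted p = 1.6e-07). Hoxa7 was at 0.539, 0.250 and 0.276 FPKM against 22.3, 26.1 and 26.4 FPKM (-4.26) and Hoxa10 at 1.51, 1.12 and 1.07 FPKM against 21.3, 26.6 and 28.3 FPKM (-3.56). The groups did not overlap at any of the 3 genes, and Hoxa5 also fell (-3.39). All 7 Hox genes that fell, the others being Hoxa3, Hoxa4 and Hoxa6, belong to the A cluster. Hoxb4, long used to expand HSC, was at 1.61, 1.54 and 1.72 FPKM against 0.978, 1.71 and 1.66 FPKM, overlapping values with a 95% interval of -0.22 to 0.44 on the log2 scale. Hoxb5 (0.38) and Hoxb2 (0.88) were not called either, whereas Hoxb7 was at 4.87, 4.41 and 5.01 FPKM against 0.0719, 0.0602 and 0.106 FPKM (2.42). Hoxa13, the 5' end gene of the A cluster, was at 3.86, 4.002 and 4.81 FPKM in the induced cells and listed at 0 in FL-LSKCD201+ replicates 1 and 3.

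Among 29 stem cell surface and niche response genes tested, 15 fell, 6 rose and 8 were not called (median log2 difference -1.05). Leukocyte surface genes made up the largest differences. Ptprc, which encodes CD45 (chromosome 1, 138062861 to 138175708, minus strand), was at 0.305, 0.321 and 0.602 FPKM in the D5-LSKCD201+ libraries and 52.1, 38.4 and 39.9 FPKM in the FL-LSKCD201+ libraries, a log2 difference of -4.97 (SE 0.15, adjusted p = 2.87e-07). The SLAM family genes Cd48, at 0, 0.112 and 0.0366 FPKM against 62.8, 49.7 and 53.2 FPKM (-5.74), and Slamf1, which encodes CD150, at 0.0274, 0 and 0 FPKM against 3.86, 5.36 and 4.64 FPKM (-2.47), were both lower. In the induced cells each of these genes had at least 1 library at or under 0.5 FPKM. Cd27, a progenitor receptor of the TNF receptor family (-5.53), and Spn, which encodes CD43 (-3.51), fell as well.

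The members that rose included genes that endothelium also expresses, while Cd34 and Vwf were not called. Cd34 was at 219, 225 and 224 FPKM against 219.7, 178 and 176 FPKM, with overlapping values and a 95% interval of -0.02 to 0.47 on the log2 scale. Esam, an endothelial adhesion molecule also used to sort HSC, rose from 85.1 ± 12.7 FPKM in fetal liver to 373 ± 6.46 FPKM in the induced cells (mean ± SD, n = 3; log2 difference 2.13). Itga2b, which encodes the early hematopoietic antigen CD41, was at 45.6, 45.4 and 44.4 FPKM against 8.30, 8.74 and 8.45 FPKM (2.28, adjusted p = 2.32e-07). Tek, which encodes the angiopoietin receptor TIE2, was at 88.8, 86.3 and 83.1 FPKM against 11.7, 7.61 and 7.91 FPKM (3.13). All induced libraries exceeded all fetal liver libraries for the last 3 genes. Fgd5 was called at a log2 difference of 1.02, and that call was lost in several alternatives. Vwf was at 6.03, 7.29 and 7.22 FPKM against 3.69, 6.22 and 5.48 FPKM and not called.

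Cytokine receptor genes went in both directions. Of 23 cytokine receptor genes tested, 8 fell, 4 rose and 11 were not called (median log2 difference -0.64, and -0.24 without FL-LSKCD201+ replicate 1). Flt3, the receptor of Flt3 ligand (chromosome 5, 147330741 to 147400489, minus strand), was at 0.110, 0.217 and 0.152 FPKM against 49.8, 50.7 and 52.3 FPKM, a log2 difference of -5.49 (adjusted p = 2.97e-08). Csf3r, the G-CSF receptor, was at 0.845, 1.17 and 0.705 FPKM against 22.2, 16.6 and 15.1 FPKM (-3.30). The induced cells were below fetal liver in every library at both of these receptors, and the erythropoietin receptor gene Epor fell less (-1.30). Csf2rb, the common beta chain for IL-3 and GM-CSF, was at 17.2, 17.5 and 17.9 FPKM against 12.8, 8.81 and 9.01 FPKM and was not called (0.74), while Csf2rb2, the IL-3-specific beta chain of the mouse, rose (1.06). These 2 genes are close paralogs, so reads may be split between them. The other 3 that rose were Lifr (2.33 on the log2 scale), Il6st (1.92), which encodes gp130, and the interferon receptor gene Ifnar1 (2.22), and the share of the list that rose, 17.4%, was near the 15.1% of all genes tested. Il7r was too low to be tested.

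Genes that nearly all leukocytes express were mostly far lower in the induced cells. Of 50 pan-leukocyte genes tested, 41 fell, 1 rose (Csf2rb2) and 8 were not called, with a median log2 difference of -3.02. The summed level was 1116 to 1144 FPKM in the D5-LSKCD201+ libraries and 4980.5 to 5213 FPKM in the FL-LSKCD201+ libraries, and without FL-LSKCD201+ replicate 1 the number that fell was 39. Coro1a, an actin regulator of leukocytes (chromosome 7, 126699773 to 126707787, minus strand), was at 11.0, 13.1 and 12.4 FPKM against 845, 727 and 742 FPKM, a log2 difference of -5.87 (adjusted p = 4.37e-08). The hematopoietic GTPase gene Rac2 was at 1.72, 2.31 and 2.62 FPKM against 199, 169 and 164 FPKM (-5.80). Not every member was near 0 in the induced cells. Lcp1, the leukocyte plastin, was at 96.8, 90.0 and 89.9 FPKM against 164, 147 and 146 FPKM without being called (-0.72), and Cd53, a leukocyte tetraspanin, at 22.5, 21.9 and 22.97 FPKM against 61.7, 72.6 and 71.8 FPKM (-1.57). Laptm5 (-3.79), Vav1 (-4.43) and Hcls1 (-2.42) lay in between. In D5-LSKCD201- cells, the CD201-negative cells of the same culture system, Lcp1 was at 10.1 ± 0.406 FPKM and Cd53 at 0.893 ± 0.395 FPKM (mean ± SD, n = 3), given as a description. Some other members differed less between the day 5 groups or went the other way. Vav1 was at 1.35 ± 0.0213 FPKM in D5-LSKCD201- cells and 1.35 ± 0.194 FPKM in D5-LSKCD201+ cells. Rac2 was at 2.84 ± 0.276 FPKM and 2.22 ± 0.458 FPKM in that order. In bulk libraries such as these, fewer expressing cells and less RNA per cell cannot be told apart.

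PU.1 and RUNX1 bind many leukocyte promoters, and the start sites of pan-leukocyte genes were searched for short motif letters. Whether the lower Spi1 and Runx1 levels bear on these genes was not tested. In RefSeq promoter windows (GRCm38.p6, 250 bases before to 50 bases after the start; 38 of the 50 genes matched, 50 windows) the PU.1 letters GAGGAAGT, read on both strands, were in 6 windows (12%), against 1013 of 32544 windows of all genes (3.11%). The RUNX letters TGTGGT were in 14 (28.0%), against 5428 of all (16.7%). For stem cell regulators the shares were 2.27% and 6.82% of 44 windows, for endothelial genes 2.56% and 7.69% of 39 windows, and for arterial genes 0% and 4% of 25 windows. The SOX letters ACAAT, searched in the same way, were in 28.0% of pan-leukocyte, 20.5% of stem cell regulator, 28.2% of endothelial and 28.0% of arterial windows, each a lower share than the 30.8% of all windows. These are descriptions of letters, with no test, and a match is not a binding site. The windows below belong to the 4 called pan-leukocyte genes with the largest differences whose window holds the PU.1 letters, a choice made after their values were seen, and are printed 5′ to 3′ along the gene with the motif letters on either strand in capitals. They lie at chr11:79523713-79524012 (minus strand) for Evi2b, chr17:57278850-57279149 (plus) for Vav1, chr7:45238790-45239089 (minus) for Cd37 and chr3:106790100-106790399 (minus) for Cd53, the last also holding 1 RUNX match.
Evi2b: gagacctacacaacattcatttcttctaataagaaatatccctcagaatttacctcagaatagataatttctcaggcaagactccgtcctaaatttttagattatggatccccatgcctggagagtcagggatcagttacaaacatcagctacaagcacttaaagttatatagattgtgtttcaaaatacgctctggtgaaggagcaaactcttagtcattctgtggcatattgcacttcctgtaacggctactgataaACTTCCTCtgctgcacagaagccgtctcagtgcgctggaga
Vav1: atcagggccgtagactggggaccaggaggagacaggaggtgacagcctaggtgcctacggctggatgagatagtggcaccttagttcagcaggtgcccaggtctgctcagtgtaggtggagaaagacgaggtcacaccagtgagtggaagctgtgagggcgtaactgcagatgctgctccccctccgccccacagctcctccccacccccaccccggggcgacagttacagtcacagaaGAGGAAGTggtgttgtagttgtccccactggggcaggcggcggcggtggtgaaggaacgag
Cd37: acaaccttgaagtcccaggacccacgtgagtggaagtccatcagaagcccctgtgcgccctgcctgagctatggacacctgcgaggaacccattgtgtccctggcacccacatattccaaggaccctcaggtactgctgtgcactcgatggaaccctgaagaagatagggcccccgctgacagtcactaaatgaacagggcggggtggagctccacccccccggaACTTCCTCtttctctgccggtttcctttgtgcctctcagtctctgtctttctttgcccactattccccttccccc
Cd53: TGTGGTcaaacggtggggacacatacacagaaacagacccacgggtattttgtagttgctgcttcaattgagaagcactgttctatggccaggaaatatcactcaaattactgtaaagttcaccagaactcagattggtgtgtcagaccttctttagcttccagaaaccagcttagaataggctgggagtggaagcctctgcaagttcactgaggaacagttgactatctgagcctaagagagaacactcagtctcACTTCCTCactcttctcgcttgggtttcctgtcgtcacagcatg
The log2 differences of these genes were -4.58 for Evi2b, -4.43 for Vav1, -3.84 for Cd37 and -1.57 for Cd53.

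Most of the endothelial genes listed were higher in the induced cells. Of 61 genes tested, 48 rose, 1 fell and 12 were not called, with a median log2 difference of 2.96. The summed level was 8011 to 8157 FPKM in the D5-LSKCD201+ libraries and 1091 to 1249 FPKM in the FL-LSKCD201+ libraries. Cdh5, the VE-cadherin of endothelial junctions (chromosome 8, 104101625 to 104144511, plus strand), was at 67.6, 73.6 and 71.2 FPKM against 0.733, 1.05 and 1.605 FPKM, a log2 difference of 5.09 (SE 0.15, adjusted p = 2.87e-07). Kdr, which encodes the VEGF receptor FLK1, was at 143, 134 and 133 FPKM against 0.924, 1.06 and 0.813 FPKM (6.16). Pecam1, which encodes CD31, was at 260.0, 269 and 251 FPKM against 17.9, 16.4 and 17.4 FPKM (3.84). Each induced library exceeded each fetal liver library many times over at these genes. Plvap, a diaphragm protein of fenestrated vessels, was at 1457, 1476 and 1454 FPKM against 10.4, 9.11 and 7.98 FPKM (7.18). The tight junction gene Cldn5 (6.68), the apelin receptor gene Aplnr (6.70), Mmrn2 (6.56), the nitric oxide synthase gene Nos3 (5.77), Flt1 (5.67), Tie1 (3.20), Eng (2.08) and Emcn (1.95) rose too. Mmrn1, which platelets and HSC also express, was the only member that fell (-1.98). Egfl7 was at 504, 479 and 501 FPKM against 286, 289 and 283 FPKM and missed the fold threshold (0.79).

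Genes of lymphatic and sinusoidal endothelium were also measured. Lyve1, a hyaluronan receptor of lymphatic and yolk sac endothelium, was at 8.84, 6.74 and 8.15 FPKM against 0.182, 0.648 and 0.477 FPKM (2.64 on the log2 scale). Stab2, a scavenger receptor of sinusoids, was at 2.25, 2.09 and 2.31 FPKM against 0.169, 0.207 and 0.240 FPKM (1.42). Mrc1, the mannose receptor of macrophages and some endothelium, was at 37.3, 37.3 and 35.3 FPKM against 0.443, 1.28 and 1.23 FPKM (4.28). All 3 were higher in every induced library than in any fetal liver library.

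Arterial genes, the signature of the vessel from which HSC bud, rose as a group. Of 29 tested, 24 rose and 5 were not called, with a median log2 difference of 3.17. The summed level was 1957 to 1971 FPKM against 255 to 274 FPKM. Gja5, the gap junction protein connexin 40 of arteries (chromosome 3, 96904693 to 97077416, plus strand), was at 132, 136 and 136 FPKM in the D5-LSKCD201+ libraries and 0.344, 0.289 and 0.317 FPKM in the FL-LSKCD201+ libraries (log2 difference 6.69, SE 0.07, adjusted p = 2.73e-08). Sox17, an arterial and hemogenic endothelial factor (chromosome 1, 4490931 to 4497354, minus strand), was at 128, 115 and 121 FPKM against 5.67, 5.46 and 4.82 FPKM (4.28). Efnb2, the arterial ephrin, was at 12.6, 12.9 and 12.8 FPKM against 0.679, 0.436 and 0.489 FPKM (3.17). The spread among the replicates was small beside these gaps. Gja4 (6.32), Sox7 (5.72), the BMP9 receptor gene Acvrl1 (4.87), Epas1 (4.44) and Igfbp5 (4.45) were higher by a similar margin. Cxcr4, whose product homes HSC to Cxcl12, was at 1.19, 1.04 and 1.24 FPKM against 3.11, 2.38 and 1.70 FPKM and not called, whereas Cxcl12 itself rose (2.09). In D5-LSKCD201- cells Sox17 was at 98.5 ± 7.90 FPKM, while Gja5 was at 1.61 ± 0.883 FPKM (mean ± SD, n = 3).

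**Figure D4:**
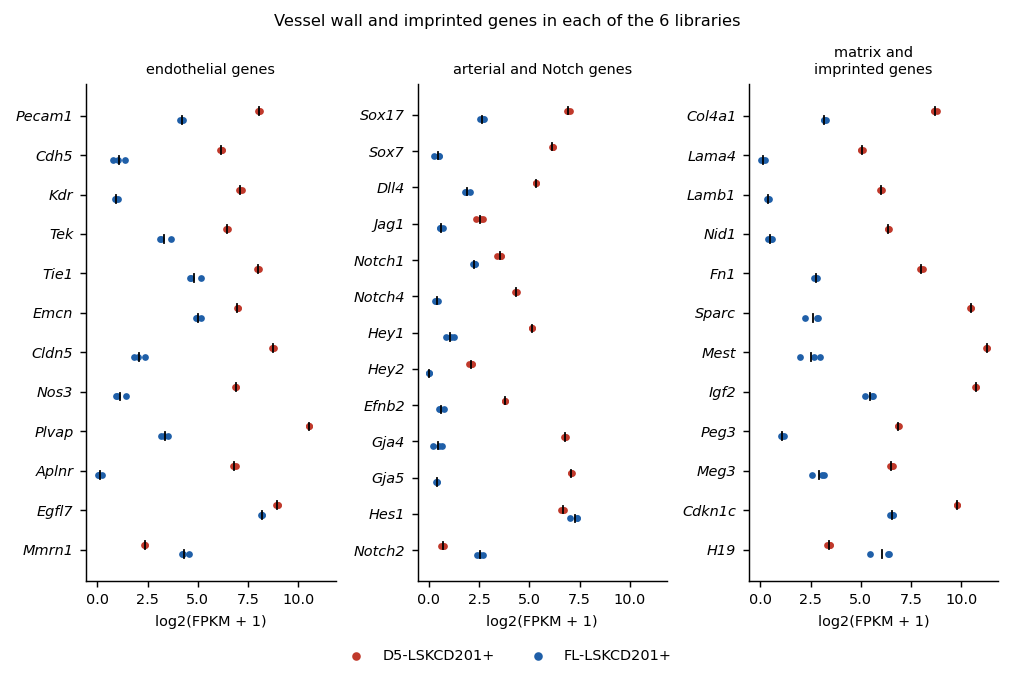
Log2(FPKM + 1) of each D5-LSKCD201+ (red) and FL-LSKCD201+ (blue) library for endothelial, arterial and Notch, matrix and imprinted genes, with a black tick at each group mean of 3 libraries. Red dots lie to the right for all genes shown except Mmrn1, Hes1, Notch2 and H19.

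Members of the Notch pathway went in both directions, and 23 of them were not called. Of 38 members tested, 10 rose (26.3%, against 15.1% of all genes tested) and 5 fell (13.2%, against 19.6%; median log2 difference 0.07, from 0.01 to 0.21 on leaving out each library in turn). Among the ligands, Dll4 was at 39.9, 38.8 and 39.1 FPKM against 3.14, 2.57 and 2.44 FPKM (3.44 on the log2 scale), Dll1 at 5.98, 6.21 and 6.99 FPKM against 0.0407, 0.0177 and 0.119 FPKM (2.80) and Jag1 at 4.10, 5.55 and 4.98 FPKM against 0.447, 0.612 and 0.474 FPKM (1.95). Of the receptors, Notch4, the endothelial one, was at 20.0, 18.7 and 19.5 FPKM against 0.247, 0.289 and 0.389 FPKM (3.96) and Notch1 at 11.2, 10.9 and 9.61 FPKM against 3.95, 3.55 and 3.91 FPKM (1.27). Notch2 went the other way, at 0.535, 0.677 and 0.617 FPKM against 4.21, 5.43 and 4.76 FPKM (-1.84). Of the targets, Hey1 was at 34.5, 33.6 and 33.8 FPKM against 1.11, 1.40 and 0.829 FPKM (4.06), and Hey2 at 3.49, 3.02 and 3.42 FPKM while listed at 0 in all 3 fetal liver libraries. Hes1, a target of Notch in many tissues, was at 93.1, 102 and 105 FPKM against 129, 165 and 164 FPKM and not called (-0.60), Hes6 fell (-1.36), and the fringe gene Lfng was at 0.827, 0.609 and 0.911 FPKM against 3.16, 1.599 and 1.64 FPKM and not called (-0.78).

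The genes of the endothelial to hematopoietic transition went in both directions. Of 32 tested, 10 rose and 17 fell (median -1.40). The 10 that rose were Cdh5, Pecam1, Sox17, Sox7, Dll4, Jag1, Hey1, Igfbp5, Bmp4 and the early hematopoietic antigen gene Itga2b. The genes that fell included Runx1, Gfi1, Gfi1b, Myb, Hlf, Spi1, Ptprc and Spn, as above, and Adgrg1, a receptor of emerging clusters also known as GPR56, at 5.98, 6.69 and 6.86 FPKM against 299.6, 229 and 227 FPKM (log2 difference -5.06). Neurl3, a ubiquitin ligase gene of hemogenic endothelium, was at 3.40, 3.09 and 3.02 FPKM against 55.0, 52.0 and 51.3 FPKM (-3.69). The list holds endothelial and hematopoietic genes, so its median alone carries little information.

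Ligands and targets of the BMP and TGF-beta pathway, which pattern hemogenic tissue, rose more often than they fell. Of 30 tested, 16 rose, 1 fell and 13 were not called (median 1.06). Bmp4, the ventralizing ligand of the aortic region, was at 10.4, 10.5 and 9.46 FPKM against 0.137, 0 and 0.114 FPKM (3.36 on the log2 scale), and Bmp2 at 11.3, 11.9 and 11.3 FPKM against 0.196, 0.213 and 0.185 FPKM (3.38). The target Id3 was at 329.5, 324 and 335 FPKM against 48.3, 57.4 and 62.0 FPKM (2.55). Id1 was called at 1.05 with all libraries but lost the call without FL-LSKCD201+ replicate 1, its lowest library. Inhba was the 1 that fell (-1.01), and it too lost the call without that library. Tgfb1 (-0.77) and the feedback inhibitors Smad6 (0.48) and Smad7 (-0.98) were not called.

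Most red cell genes were higher in the fetal liver libraries. Of 8 globin genes tested, 6 fell (median -6.42, and -3.41 with no filter on low values), and the summed globin level was 43.8 to 69.6 FPKM in the D5-LSKCD201+ libraries and 22376 to 46225 FPKM in the FL-LSKCD201+ libraries. Hba-a1 was at 9.27, 9.26 and 11.97 FPKM against 4416, 10523 and 9668 FPKM (-9.43 on the log2 scale), Hba-a2 had a difference of -9.85 and Hbb-bt one of -10.03. The alpha-globin pair is near-identical in sequence, and 129 strains carry another beta-globin haplotype than C57BL/6, so the split of reads among these genes is uncertain. Hbb-bh1, an embryonic beta-like globin of primitive red cells, was at 10.7, 17.9 and 19.1 FPKM against 9.39, 23.8 and 21.4 FPKM, overlapping values. Hba-x, the embryonic zeta globin, was at 3.69, 9.13 and 10.3 FPKM against 12.8, 2.38 and 2.91 FPKM, and it was called higher in the induced cells when FL-LSKCD201+ replicate 1 was left out. Hbb-y, the other embryonic beta-like globin tested, fell (-3.41), at 0.704, 1.54 and 0.925 FPKM against 90.3, 10.6 and 8.46 FPKM, with replicate 1 far above the other fetal liver libraries. Of 29 other erythroid genes tested 26 fell and 1 rose (median -3.28), and their summed level was 493 to 515 FPKM against 2390.4 to 2522 FPKM. Gata1, the erythroid and megakaryocytic factor, was at 0.155, 0.530 and 0.534 FPKM against 46.3, 40.6 and 37.0 FPKM (-4.92), the blood group gene Rhd differed by -6.01 and the heme synthesis gene Alas2 by -5.23. Aqp1, a water channel of red cells and endothelium, was the member that rose, at 65.7, 60.8 and 61.1 FPKM against 14.7, 7.999 and 8.53 FPKM (2.52). The lineage-negative gate is meant to remove maturing red cells, and the part of any that remained, or of free globin RNA, was not tested.

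Megakaryocyte genes fell more often than they rose. Of 25 tested, 15 fell, 4 rose and 6 were not called (median -1.63). The glycoprotein gene Gp9 was at 0.0488, 0.172 and 0.204 FPKM against 37.7, 29.9 and 32.8 FPKM (-4.91 on the log2 scale) and the platelet factor gene Pf4 at 2.21, 2.11 and 0.927 FPKM against 26.2, 43.6 and 39.4 FPKM (-3.77). Of the 4 that rose, F2r, the thrombin receptor, was at 240.4, 247 and 232 FPKM against 24.4, 16.3 and 17.9 FPKM (3.57) and Clec1b, which encodes the platelet receptor CLEC-2, at 29.2, 31.9 and 28.7 FPKM against 3.95, 7.32 and 6.66 FPKM (2.18). The others were Itga2b (2.28), whose product is platelet glycoprotein IIb, and the tetraspanin gene Cd9 (1.03, a call lost without FL-LSKCD201+ replicate 1 or D5-LSKCD201+ replicate 2).

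Myeloid genes fell almost without exception. Of 34 tested, 33 fell and 1, Mrc1, rose (median -4.40), and the summed level was 101 to 103 FPKM in the D5-LSKCD201+ libraries and 3923 to 4791 FPKM in the FL-LSKCD201+ libraries. Mpo, the myeloperoxidase of granulocyte progenitors (chromosome 11, 87793581 to 87804413, plus strand), was at 3.91, 4.38 and 4.11 FPKM against 922, 821 and 811 FPKM, a log2 difference of -7.37 (adjusted p = 2.73e-08). Elane, the neutrophil elastase gene, was at 0.0520, 0 and 0.111 FPKM against 198, 244 and 247 FPKM (-7.77). The myeloid genes S100a8 (284, 669 and 676 FPKM) and S100a9 (324, 586 and 584 FPKM) were lower in FL-LSKCD201+ replicate 1 than in replicates 2 and 3, and under 2 FPKM in every induced library. Macrophage genes followed, with the complement gene C1qa listed at 0 in all 3 induced libraries and at 16.4, 25.5 and 25.2 FPKM in fetal liver, and Adgre1, which encodes F4/80, at 0.0629, 0 and 0 FPKM against 5.12, 6.94 and 7.07 FPKM (-2.84). In BM-LSKCD201+ cells, the same gate in adult C57BL/6 marrow, Mpo was at 51.8 ± 2.69 FPKM, S100a8 at 83.3 ± 10.7 FPKM, Lyz2 at 377 ± 15.1 FPKM and Prtn3 at 316 ± 57.4 FPKM (mean ± SD, n = 3), against 568 ± 39.7 FPKM and 319 ± 71.7 FPKM for the last 2 in fetal liver. Elane and Ctsg were near 0 in those marrow cells, at 0.390 ± 0.308 FPKM and 0.281 ± 0.131 FPKM. Ctsg was at 164 ± 15.1 FPKM in fetal liver. The lineage-negative gate is meant to remove maturing granulocytes and macrophages, and the part of any that remained was not tested.

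Mast cell, basophil and lymphoid priming genes fell more often than they rose. Of 9 mast cell and basophil genes tested, 6 fell (median -1.66, and -2.68 without FL-LSKCD201+ replicate 1). Cpa3, a mast cell protease gene, was at 0.0395, 0 and 0.0853 FPKM against 20.0, 14.8 and 14.4 FPKM (-4.05 on the log2 scale), and Mcpt8, a basophil protease gene, was listed at 0 in the induced libraries and at 14.7, 7.11 and 8.18 FPKM in fetal liver. Of 22 lymphoid priming genes tested, 14 fell, 3 rose and 5 were not called (median -1.82). Ltb, the lymphotoxin beta gene, was at 1.21, 1.54 and 1.12 FPKM against 186, 222 and 221 FPKM (-6.52), and the immunoglobulin heavy chain gene Ighm (-3.89) fell as well. The 3 that rose were Ebf1 (2.98), Lef1 (2.65) and Notch1, none of which is restricted to lymphocytes. The committed lymphocyte genes Rag1, Dntt and Cd3e were too low to be tested in either group.

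Markers of hepatoblasts, the parenchymal cells of the fetal liver, were present in the fetal liver libraries. Of 26 hepatocyte and hepatoblast genes tested, 22 fell and 2 rose in the D5-LSKCD201+ cells (median -3.47). Afp (chromosome 5, 90490737 to 90508907, plus strand) was at 0.406, 0.428 and 0.552 FPKM in the D5-LSKCD201+ libraries and 188, 271 and 261 FPKM in the FL-LSKCD201+ libraries, Alb, the albumin gene, at 0.0714, 0 and 0.0258 FPKM and 63.0, 73.7 and 69.7 FPKM, and Apoa1 at 0.101, 0.295 and 0 FPKM and 73.1, 142 and 141 FPKM. In adult BM-LSKCD201+ cells Afp was at 7.30 ± 1.93 FPKM and Alb at 0.0411 ± 0.0412 FPKM (mean ± SD, n = 3). The summed list ran from 1317 to 1388 FPKM in the induced and from 1359 to 1805 FPKM in the fetal liver libraries. Apoe, which many cell types make, was at 1159.6 ± 28.1 FPKM in the induced cells, where it made up most of the sum, and at 654 ± 86.4 FPKM in fetal liver. The hepatocyte transcription factor gene Hnf4a fell (-1.80), at 0.150, 0.0637 and 0.0835 FPKM against 3.60, 2.56 and 2.40 FPKM, and was at 10.8 ± 0.496 FPKM in the marrow cells, above fetal liver. The members that rose were Dlk1 (1.301) and Krt8 (1.07, a call lost without FL-LSKCD201+ replicate 1). The part of liver cells or their RNA in the fetal liver libraries was not tested.

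Stromal genes were higher in the induced cells. Of 32 stromal and mesenchymal genes tested, 27 rose and 5 were not called (median 2.47), and the summed level was 3029 to 3116 FPKM against 234 to 298 FPKM. Much of the sum came from genes that endothelium also expresses, such as Sparc and the fibronectin gene Fn1, at 276, 251 and 246 FPKM against 5.30, 6.11 and 5.86 FPKM (5.26 on the log2 scale). Of the defining stromal genes, Col1a1, the fibrillar collagen of fibroblasts, was at 30.3, 30.7 and 28.4 FPKM against 0.0520, 0.876 and 0.563 FPKM (4.40), Col3a1 at 18.3, 17.1 and 17.8 FPKM against 0.0416, 0.799 and 0.664 FPKM (3.68) and Acta2, the smooth muscle actin gene, at 35.5, 42.3 and 40.3 FPKM against 0.165, 0.0589 and 0.155 FPKM (5.16). Pdgfra, a mesenchymal receptor gene, was at 0.689, 0.641 and 0.698 FPKM against 0.101, 0.0720 and 0.0429 FPKM, too low to be tested, and Pdgfrb at 1.37, 1.33 and 1.20 FPKM against 0.175, 0.183 and 0.230 FPKM, not called. Kitl, which encodes stem cell factor, was at 8.61, 8.65 and 8.57 FPKM against 0.0856, 0.193 and 0.174 FPKM (3.06). In the D5-LSKCD201- cells of the same culture system Col1a1 was at 19.5 ± 9.996 FPKM, and in mESC, the embryonic stem cells, at 3.80 ± 0.180 FPKM. The part of OP9 or other stromal cells in the induced libraries was not tested.

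Basement membrane genes, which endothelium secretes, rose as well. Of 39 tested, 32 rose and 7 were not called (median 2.81). Col4a1, a basement membrane collagen (chromosome 8, 11198423 to 11312826, minus strand), was at 444, 391.8 and 401 FPKM in the D5-LSKCD201+ libraries and 8.48, 7.93 and 8.03 FPKM in the FL-LSKCD201+ libraries, a log2 difference of 5.50 (adjusted p = 2.73e-08). The laminin genes Lama4 (4.91), Lamb1 (5.64) and Lamc1 (2.81), Col4a2 (3.99), the nidogen gene Nid1 (5.86) and the membrane protease gene Mmp14 (5.93) rose as well. Among matrix receptors the integrin gene Itgb1 was at 233, 221 and 221 FPKM against 59.3, 49.5 and 51.5 FPKM (2.06), while Itga6 was at 20.3, 21.1 and 20.1 FPKM against 14.5, 17.6 and 17.0 FPKM and not called (0.32).

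Pluripotency genes rose above fetal liver more often than they fell, while the core factors Pou5f1 and Nanog were far below their mESC level. Of 22 pluripotency genes tested, 11 rose (50%, against 15.1% of all genes tested) and 2 fell (9.09%, against 19.6%). Another 9 were not called (median 0.99), and 14 more were under the filter. Pou5f1, which encodes OCT4, was at 2.67, 1.77 and 2.58 FPKM in the D5-LSKCD201+ libraries, 0.766, 0.570 and 0.619 FPKM in the FL-LSKCD201+ libraries and 426 ± 2.52 FPKM in mESC (mean ± SD, n = 3), and its call at 1.01 was lost in several alternatives. Nanog was at 0.357, 0.340 and 0.578 FPKM against 0.121, 0.0439 and 0.0766 FPKM and 73.9 ± 2.51 FPKM in mESC. Both core factors were thus a small fraction of their mESC level in every induced library. Sall4 rose, at 15.5, 16.1 and 14.4 FPKM against 0.350, 0.360 and 0.212 FPKM (3.64 on the log2 scale; 121 ± 1.57 FPKM in mESC), and so did Dppa4 (3.31), Tbx3 (2.54) and Lin28a (2.31). The 2 that fell were Dnmt3b, a de novo DNA methyltransferase gene, at 14.5, 15.5 and 14.9 FPKM against 88.5, 73.1 and 71.8 FPKM (-2.29), and Gdf3 (-2.40).

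**Figure D5:**
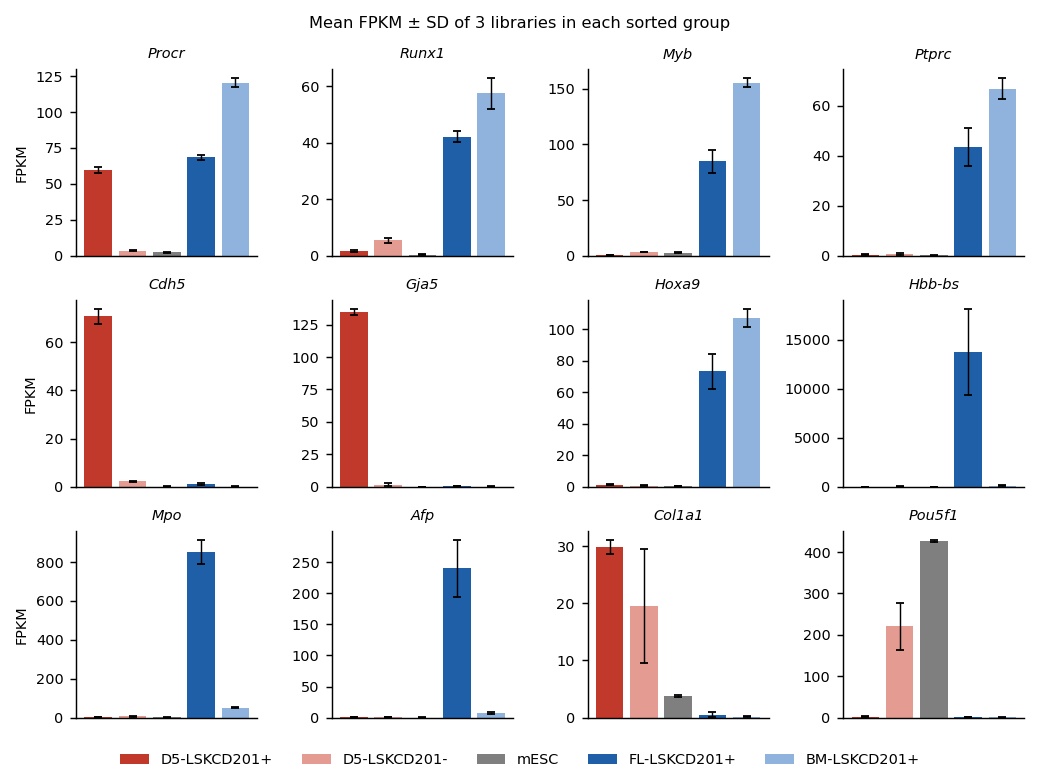
Bars are mean FPKM and error bars the SD of 3 libraries for 12 genes in D5-LSKCD201+, D5-LSKCD201-, mESC, FL-LSKCD201+ and BM-LSKCD201+ cells, each panel with its own linear axis from 0. Cdh5 and Gja5 stand up in D5-LSKCD201+ cells alone among the panels shown, Runx1, Myb, Ptprc and Hoxa9 in the fetal liver and marrow groups, and Hbb-bs, Mpo and Afp are highest in the fetal liver group.

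Most cell cycle genes were not called. Of 35 DNA replication genes 5 fell, a share of 14.3% against 19.6% of all genes tested, and 30 were not called (median -0.48), and of 32 mitosis genes 4 rose, 1 fell and 27 were not called (median 0.31). Pcna, the DNA polymerase clamp, was at 90.6, 91.3 and 92.2 FPKM against 249, 230.5 and 241 FPKM (log2 difference -1.38), and the polymerase gene Pole (-1.92) and Cdt1 (-1.10) fell as well. Mcm2 was at 82.8, 88.2 and 85.3 FPKM against 168, 105 and 107 FPKM and was not called. Mki67, which encodes the proliferation antigen Ki-67, was at 6.04, 6.50 and 6.52 FPKM against 14.2, 24.3 and 23.6 FPKM (-1.53, adjusted p = 0.000378). The 4 mitosis genes that rose, a share of 12.5% against 15.1% of all genes tested, were the cytokinesis gene Anln, at 36.8, 38.3 and 34.7 FPKM against 9.99, 8.13 and 8.12 FPKM (1.95), Kif2c (1.60), Bub1 (1.12) and Plk1 (1.06, a call lost without FL-LSKCD201+ replicate 3). Top2a had overlapping values, at 60.1, 59.7 and 58.8 FPKM against 56.7, 70.4 and 67.5 FPKM. RNA levels of these genes do not give the share of cells in a phase.

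Regulators of cell cycle entry went in both directions. Of 25 tested, 5 rose (20.0%, against 15.1% of all genes tested), 7 fell (28.0%, against 19.6%) and 13 were not called (median -0.15, and -0.01 without FL-LSKCD201+ replicate 1). Cdkn1c, which encodes the inhibitor p57 and is imprinted (chromosome 7, 143458339 to 143461050, minus strand), was at 883, 878 and 884 FPKM in the D5-LSKCD201+ libraries and 86.7, 94.6 and 96.5 FPKM in the FL-LSKCD201+ libraries, a log2 difference of 3.24 (SE 0.08, adjusted p = 1.17e-07). It was at 49.1 ± 2.82 FPKM in D5-LSKCD201- and 55.8 ± 1.12 FPKM in BM-LSKCD201+ cells (mean ± SD, n = 3). Cdkn1a, which encodes p21, was at 68.0, 58.5 and 61.5 FPKM against 15.1, 24.3 and 20.9 FPKM (1.61), and Cdkn2b (2.93) and Gas1 (3.33) rose too. Ccng2, a cyclin of quiescent cells, was at 37.6, 38.2 and 38.7 FPKM against 55.2, 37.2 and 37.0 FPKM, overlapping values with an interval of -0.52 to 0.23 on the log2 scale. Of the genes that drive entry, Cdk6 was at 2.17, 1.95 and 1.25 FPKM against 12.01, 17.1 and 15.5 FPKM (-2.51) and the cyclin D2 gene Ccnd2 at 21.8, 21.5 and 17.3 FPKM against 87.1, 102 and 102 FPKM (-2.21), while Ccnd1 (0.31) and Ccnd3 (0.29) were not called.

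Genes of the program that separates fetal from adult HSC were next compared. Of 15 genes tested, 7 rose, 2 fell and 6 were not called (median 0.76). Lin28b, the RNA-binding protein that sets fetal identity, was at 4.60, 4.23 and 4.06 FPKM in the D5-LSKCD201+ libraries, 5.10, 6.79 and 6.38 FPKM in the FL-LSKCD201+ libraries and 0.0963 ± 0.0153 FPKM in adult BM-LSKCD201+ cells (mean ± SD, n = 3). Its target Hmga2 was at 33.6, 39.5 and 33.8 FPKM against 50.2, 60.3 and 63.6 FPKM, and 3.39 ± 0.480 FPKM in adult marrow. Neither was called between the induced and fetal liver cells (-0.41 and -0.68 on the log2 scale). Hmga1 was at 151, 137 and 148 FPKM against 748, 689 and 675 FPKM (-2.27), and the insulin-like growth factor mRNA-binding gene Igf2bp1 at 29.7, 30.7 and 29.2 FPKM against 12.4, 11.4 and 11.2 FPKM (1.28). Arid3a was at 14.99, 12.9 and 13.0 FPKM against 11.0, 12.3 and 12.4 FPKM and not called.

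Imprinted genes, many of which regulate fetal growth, were mostly higher in the induced cells. Of 28 tested, 21 rose, 2 fell and 5 were not called (median 1.79), and the summed level was 6723 to 6792 FPKM against 801 to 914 FPKM. Neighbouring genes of the Igf2 and H19 domain went in opposite directions. Igf2, a growth factor expressed from the paternal allele (chromosome 7, 142650766 to 142666816, minus strand), was at 1699, 1654 and 1675 FPKM against 35.4, 46.4 and 48.0 FPKM (5.25, adjusted p = 1.21e-07). H19, a maternally expressed noncoding RNA (chromosome 7, 142575529 to 142578143, minus strand), was at 9.96, 9.08 and 10.1 FPKM against 42.8, 82.7 and 81.1 FPKM (-2.65, adjusted p = 7.17e-05), with FL-LSKCD201+ replicate 1 below replicates 2 and 3. Peg3, a paternally expressed zinc finger gene, was at 118, 113 and 113 FPKM against 1.10, 1.05 and 1.28 FPKM (5.75). In the Dlk1 domain, the ligand gene Dlk1 was at 126, 115 and 118 FPKM against 51.2, 46.4 and 46.5 FPKM (1.301) and the noncoding Meg3 at 97.2, 91.6 and 85.3 FPKM against 4.97, 7.27 and 7.99 FPKM (3.60). Grb10 rose (1.54) and Slc22a18 fell (-1.90). The values do not separate the parental alleles.

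Genes of antigen presentation and the interferon response fell more often than they rose. Of 42 tested, 23 fell, 2 rose and 17 were not called (median -1.09), and 21 fell without FL-LSKCD201+ replicate 1. The immunoproteasome gene Psmb9 was at 0.685, 0.779 and 1.03 FPKM against 46.3, 55.1 and 53.0 FPKM (-4.84 on the log2 scale) and Psmb8 at 4.24, 4.89 and 6.03 FPKM against 138, 120.5 and 116 FPKM (-4.39). The class I gene H2-K1 was at 67.8, 72.3 and 68.0 FPKM against 281, 262 and 255 FPKM (-1.92), and reads of class I genes can be split between paralogs. The class II chain gene Cd74 was at 0.411, 0.708 and 0.480 FPKM against 29.3, 10.5 and 10.2 FPKM (-3.36). Among interferon-induced genes and interferon regulators, Ifi203 (-4.31), Ifitm1 (-4.25) and Irf7 (-1.35) fell. Ifitm3 was at 324, 303 and 320.2 FPKM against 286, 309 and 306 FPKM with overlapping values, and the 2 members of the list that rose were Usp18 (1.75) and Stat2 (1.41).

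Glycolytic and hypoxia-induced genes rose more often than they fell. Of 32 tested, 19 rose, 2 fell and 11 were not called (median 1.18). The glucose transporter genes Slc2a1, at 439, 484 and 449 FPKM against 80.2, 60.8 and 62.0 FPKM (2.75 on the log2 scale), and Slc2a3, at 316, 351 and 339.9 FPKM against 23.3, 17.9 and 17.8 FPKM (4.04), rose. The phosphoglycerate kinase gene Pgk1 was at 604, 602 and 623 FPKM against 168, 176 and 174 FPKM (1.81). Bnip3, a mitophagy gene induced by hypoxia, was at 183, 181 and 183 FPKM against 29.4, 30.5 and 30.8 FPKM (2.56), and the vasoactive peptide gene Adm differed by 5.41. In these genes the induced libraries were tightly grouped and above all fetal liver libraries. Ldha, the lactate dehydrogenase gene, was at 2126, 2215 and 2183 FPKM against 1402, 964 and 954 FPKM and just missed the fold threshold, and Hk2 had overlapping values, at 13.4, 13.6 and 13.4 FPKM against 12.9, 12.7 and 13.8 FPKM. The members that fell were the hypoxia marker gene Car9 (-1.43) and the phosphofructokinase gene Pfkm (-1.02, a call lost without FL-LSKCD201+ replicate 1 and with quantile normalization). D5-LSKCD201- cells of the same culture system had 439.8 ± 45.1 FPKM of Slc2a1 and 329 ± 47.9 FPKM of Bnip3 (mean ± SD, n = 3).

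Some genes of the sex chromosomes differed between the groups. Xist, the RNA that silences an X chromosome in female cells, was at 0.00427, 0.00229 and 0.00466 FPKM in the D5-LSKCD201+ libraries and 1.44, 1.73 and 2.01 FPKM in the FL-LSKCD201+ libraries (-1.44 on the log2 scale). Tsix, its antisense partner, fell as well (-1.95), and since the strand of the counting is not given in the sources used here, reads of the overlapping pair cannot be told apart. The Y-linked gene Eif2s3y was at 23.9, 25.4 and 20.0 FPKM against 18.2, 19.3 and 17.7 FPKM and not called. Kdm5d, another Y-linked gene, fell (-1.47). Xist and Y-linked transcripts were thus both detected in the fetal liver libraries, while Xist was near 0 in the induced ones.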

How the data were processed

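Cells were sorted by FACS, RNA was isolated with TRIzol and mRNA libraries were prepared with a VAHTS kit. Per the labels and the study's methods the authors aligned reads to GRCm38 with HISAT2 2.0.5 (mm9 is also named in the processing notes), assembled transcripts with StringTie 1.3.3, deposited FPKM values per gene and compared groups with Cuffdiff 1.3.0. The deposited FPKM carry no counts, so depth is unknown and no counting interval is given. Genes whose level averaged 0.5 FPKM or more across both groups were tested on log2(FPKM + 1) with limma 3.58.1 (R 4.3.3; moderated test with a mean-variance trend, two-sided, no covariates), with Benjamini-Hochberg adjustment over all 13627 genes. A gene was called at an adjusted p under 0.05 and a log2 difference of at least 1, D5-LSKCD201+ minus FL-LSKCD201+. On this scale the fold of a low gene is understated. The fit was tested on simulated data of 13390 genes with 200 changed by 2 on the log2 scale, of which 95.0% were recovered. Coordinates are those of GENCODE M21 (GRCm38), in which 27828 of 27968 identifiers were found. Promoters were RefSeq windows of GRCm38.p6.

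The comparison and the gene lists were chosen with earlier results of these data known. Several lists share members. Genes named are the 15 largest called differences in each direction with values that do not overlap (clone names left out), preset members of each list, and the 3 called members of each list with the largest difference in each direction. Evi2b, Cd37, Apoe, Cd9 and the A-cluster genes Hoxa3, Hoxa4 and Hoxa6 were named after their values were seen. A few genes that this rule names are not reported here. Alternatives were another pseudocount, filter, normalization, variance model, call rule and fit, a replicate block, and leaving out each library in turn. Averaging FL-LSKCD201+ replicates 2 and 3, which lay closest, was added after seeing the data.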

Additional observations from a re-analysis of the deposited data

How the results depend on the processing

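The counts of 2054 higher and 2673 lower genes were within 1.5 times of their value under every alternative but the call rule. With the adjusted p alone, without the fold threshold, 4105 genes were higher and 5718 lower. Leaving out each library in turn gave 2019 to 2124 higher and 2607 to 2820 lower genes. With a pseudocount of 0.1 in place of 1, 5863 genes were called. Quantile normalization moved the median of all genes from -0.16 to -0.05 and the share of calls that were higher from 43.5% to 50.2%, with 4610 calls. No called list member changed sign in any alternative run. Members not called did, 31 of them, each within 0.223 of 0 on the log2 scale with all libraries, among them Kit, at -0.16 with all libraries and 0.06 without FL-LSKCD201+ replicate 1. The call of 26 list members was lost in at least 1 alternative, 15 of them without FL-LSKCD201+ replicate 1 and 9 with quantile normalization, most of them near the fold threshold, such as B2m, Id1 and Krt8. Gmfg and H2-Aa lost it on the adjusted p, H2-Aa at log2 differences of -1.57 to -1.63 with adjusted p of 0.0567 to 0.0812 in limma. List medians moved by over 1.5 times mostly with the treatment of low values. With a pseudocount of 0.1 they were, among others, -6.14 for hepatocyte, 4.43 for stromal, -3.20 for megakaryocyte, -3.16 for lymphoid priming, -2.97 for mast cell, -3.41 for lineage antigen and 1.70 for pluripotency genes. With no filter they were -3.41 for globins, -0.67 for lymphoid priming, -0.99 for lineage antigens, 0.50 for pluripotency, 0.64 for BMP and TGF-beta and 0.05 for Hox genes, the last a change of sign, and with a filter at 1 FPKM the Hox median was -1.11. Quantile normalization gave -0.41 for cytokine receptors, -0.34 for Hox and -0.04 for cell cycle entry genes. Each of the alternatives that refit the model shared between 92.02% and 100% of the 4727 calls. With the replicate number as a block 4730 genes were called. Deviations of same-numbered libraries from their group means correlated at -0.153, -0.197 and 0.0401. These values cannot show whether the numbers pair libraries, since deviations in a group of 3 sum to 0 and FL-LSKCD201+ replicate 1 stood apart. Averaging FL-LSKCD201+ replicates 2 and 3, added after seeing the data, gave 4666 calls. With 3 libraries a group, of unknown depth, differences under the fold threshold are given as values and are not evidence of equal levels.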

Other observations

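A further set of genes followed the strain labels across the 5 sorted groups, which is described here without a test. At least 10 FPKM in all 3 groups labelled 129/ola (D5-LSKCD201+, D5-LSKCD201- and mESC) and under 0.5 FPKM in both groups labelled C57BL/6 (FL-LSKCD201+ and BM-LSKCD201+) was found for 20 genes, and the opposite pattern for 51. The first set held both protein-coding genes and processed pseudogenes. Yap1, the effector of the Hippo pathway, was at 12.9 ± 1.09 FPKM in D5-LSKCD201+ cells, 10.8 ± 5.90 FPKM in D5-LSKCD201- cells, 13.3 ± 1.59 FPKM in mESC, 0.404 ± 0.0249 FPKM in FL-LSKCD201+ and 0.347 ± 0.347 FPKM in BM-LSKCD201+ cells (mean ± SD, n = 3). The adaptor gene Bcar1 was at 58.7 ± 2.74, 28.2 ± 7.53, 50.8 ± 1.16, 0.216 ± 0.00959 and 0.248 ± 0.215 FPKM in the same order. The ferritin pseudogene Ftl1-ps2 was at 45.1 ± 8.69, 62.0 ± 11.2, 137 ± 8.86, 0.250 ± 0.0861 and 0.434 ± 0.218 FPKM, and its reads may belong to the parent gene. The second set included Ramp1, a calcitonin-family coreceptor gene, at 67.4 ± 1.88 FPKM in FL-LSKCD201+, 220.3 ± 27.8 FPKM in BM-LSKCD201+ and 0.362 ± 0.0706 FPKM in D5-LSKCD201+ cells. It also included Hemgn, a nuclear protein gene of hematopoietic cells, at 44.6 ± 7.73, 13.6 ± 1.63 and 0.0541 ± 0.0470 FPKM in that order. Strain label and origin in culture are the same split of these groups and cannot be told apart, and the study's methods name stem cells of both strains.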
